A study of Mus musculus with 18 samples.

Results

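The Trim30 cluster and other Trim genes with a link to interferon, 10 genes in all, were followed in mouse 3T3-L1 cells with and without knockdown of SIRT6, before and after adipogenesis was induced. They encode proteins of the tripartite motif (TRIM) family. The genes are Trim30a, Trim30b, Trim30c, Trim30d, Trim12a, Trim12c, Trim34a, Trim21, Trim25 and Trim14, taken by symbol from the probe annotation, 10 of 22180 genes that have a row of their own. Each gene was read from the row that carries its symbol alone, and where several such rows exist, from the one with the highest mean over the 18 arrays. The family was chosen by a measured value, the higher signal of Trim30d in SIRT6 KD than in WT cells at 20 hr and at 40 hr on these same arrays, so that difference is described without a test.

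The arrays fall into 6 groups of 3: WT cells and SIRT6 KD cells, each at 0 hr, 20 hr and 40 hr. The study's methods describe 3T3-L1 preadipocytes, an established mouse line that turns into fat cells in culture, infected with a lentivirus that carries shRNA against Sirt6 (SIRT6 KD), and induced with IBMX, dexamethasone and insulin once confluent. Whether the WT cells of the arrays carried a control shRNA is not given in the sources used here, so vector and knockdown cannot be told apart. The labels give the genotypes and the time points without a unit, list both genotypes as untreated at 0 hr and as treated with an inhibitor later, and speak of mice; the line, the knockdown by shRNA and the unit of time come from the methods. All 6 groups come from one cell line. The methods speak of biological replicates for cell culture work in general, and neither they nor the labels describe how the cultures of the arrays were kept apart, so the spread behind the p-values may be technical in part.

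TRIM proteins are mostly ubiquitin ligases, built from a RING domain that recruits the ubiquitin-conjugating enzyme, B-box and coiled-coil regions through which they form dimers, and a variable end that binds the target. Interferon, released by infected cells, acts through its receptor, JAK kinases and STAT factors to switch on many of these genes, whose products then restrict viruses or tune the signal that made them. Many cells express such genes at a low level without infection.

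Of the 10 genes, 7 lie together on mouse chromosome 7 (GRCm38.p6), from the start of Trim34a at chr7:104244448-104262244 to the end of Trim30d at chr7:104470014-104507853, a span of 263 kb. Trim12a, Trim12c, Trim30b, Trim30c and Trim30a lie between them. Trim21 lies on the same chromosome at chr7:102557920-102565482, Trim25 at chr11:88999403-89020294 and Trim14 at chr4:46505072-46536150. The neighbouring copies are similar in sequence, so a row named for one copy may also bind RNA of another, and this was not tested.

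The promoters are shown because interferon acts on these genes through short elements near the start site. The genes called lower and those not called can also be read against them. Windows of 300 bases, 250 before and 50 after the start of a transcript, were taken from RefSeq (GRCm38.p6) and matched 9 of the 10 genes. The element searched, on either strand, was GAAA, any 2 bases and GAAA again, the core of the interferon-stimulated response element bound by IRF and STAT complexes. Capitals mark the element or its extended form, in which CT follows, except in Trim30c, where they mark the stretch nearest to the element of Trim30d. Trim30a has 2 annotated starts, of which the one farther upstream is printed (its other window holds the same 12 bases). The windows are chr7:104507800-104508099 for Trim30d, chr7:104465144-104465443 for Trim30a, chr7:104400729-104401028 for Trim30c, chr7:104353300-104353599 for Trim12c and chr7:102565433-102565732 for Trim21, all on the minus strand, and chr7:104244207-104244506 on the plus strand for Trim34a. Each is written in the direction of its gene.
Trim30d: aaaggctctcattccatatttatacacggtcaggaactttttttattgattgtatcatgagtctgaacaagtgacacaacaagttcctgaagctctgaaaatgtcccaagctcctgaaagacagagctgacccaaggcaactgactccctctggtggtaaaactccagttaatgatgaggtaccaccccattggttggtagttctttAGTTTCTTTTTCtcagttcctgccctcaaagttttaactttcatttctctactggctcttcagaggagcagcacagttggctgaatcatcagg
Trim30a: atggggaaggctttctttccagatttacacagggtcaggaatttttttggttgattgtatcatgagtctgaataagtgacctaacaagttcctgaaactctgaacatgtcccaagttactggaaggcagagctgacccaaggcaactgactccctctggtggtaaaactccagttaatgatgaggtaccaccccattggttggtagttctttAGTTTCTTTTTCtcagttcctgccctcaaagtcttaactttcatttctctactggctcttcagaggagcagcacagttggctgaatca
Trim30c: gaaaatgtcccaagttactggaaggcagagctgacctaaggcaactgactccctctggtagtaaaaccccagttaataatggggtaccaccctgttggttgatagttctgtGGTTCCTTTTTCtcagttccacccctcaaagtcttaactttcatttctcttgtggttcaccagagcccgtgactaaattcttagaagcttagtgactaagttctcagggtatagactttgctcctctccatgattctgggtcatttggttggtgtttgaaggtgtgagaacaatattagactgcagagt
Trim34a: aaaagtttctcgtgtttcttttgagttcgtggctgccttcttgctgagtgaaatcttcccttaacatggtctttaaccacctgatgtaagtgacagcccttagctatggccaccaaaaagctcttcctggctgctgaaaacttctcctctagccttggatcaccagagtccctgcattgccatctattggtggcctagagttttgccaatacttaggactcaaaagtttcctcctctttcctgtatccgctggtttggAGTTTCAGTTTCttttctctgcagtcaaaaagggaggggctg
Trim12c: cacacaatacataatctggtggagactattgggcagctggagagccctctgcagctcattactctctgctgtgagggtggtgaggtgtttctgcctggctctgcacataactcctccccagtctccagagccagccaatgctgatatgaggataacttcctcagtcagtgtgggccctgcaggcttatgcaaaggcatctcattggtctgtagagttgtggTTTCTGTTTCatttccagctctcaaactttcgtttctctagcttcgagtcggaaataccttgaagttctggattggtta
Trim21: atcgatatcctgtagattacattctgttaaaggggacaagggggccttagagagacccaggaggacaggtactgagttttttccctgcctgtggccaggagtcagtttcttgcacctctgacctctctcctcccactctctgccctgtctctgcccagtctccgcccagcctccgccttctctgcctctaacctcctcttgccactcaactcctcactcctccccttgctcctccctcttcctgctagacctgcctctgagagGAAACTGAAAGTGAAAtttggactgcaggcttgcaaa

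The element stood in 6 of the 9 genes with a window, namely Trim30a, Trim30d, Trim12a, Trim12c, Trim34a and Trim21, against 3.99% of 27025 genes (3.44% of 32851 windows). In Trim30d it began 41 bases before the start, in Trim30a 36 bases before the printed start and in Trim12c 29 bases before it. In Trim12a and Trim34a it began 10 bases after the start, and Trim21 held 2 overlapping copies that began 13 and 19 bases after it. The extended form stood in Trim30a, Trim30d and Trim34a, against 0.271% of all windows. It was the same 12 bases, AGTTTCTTTTTC, in Trim30a and Trim30d, whose windows shared an unbroken run of 118 bases around it. The nearest stretch of Trim30c, GGTTCCTTTTTC, lay 139 bases before its annotated start and differed at 2 bases, A1G and T5C, counted from the 5′ end of the 12 bases of Trim30d. Trim30b, Trim30c and Trim25 held no exact match. With up to 1 mismatch allowed all 9 genes held one, as did 35.4% of all windows. A binding site of STAT dimers, TTCNNNGAA, stood in Trim30c alone of the 9 genes and in 8.3% of all windows. These are matches of letters, and binding was not measured. As the list was drawn up around a link to interferon, a share above that of all genes may follow from the choice.

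**Figure D1:**
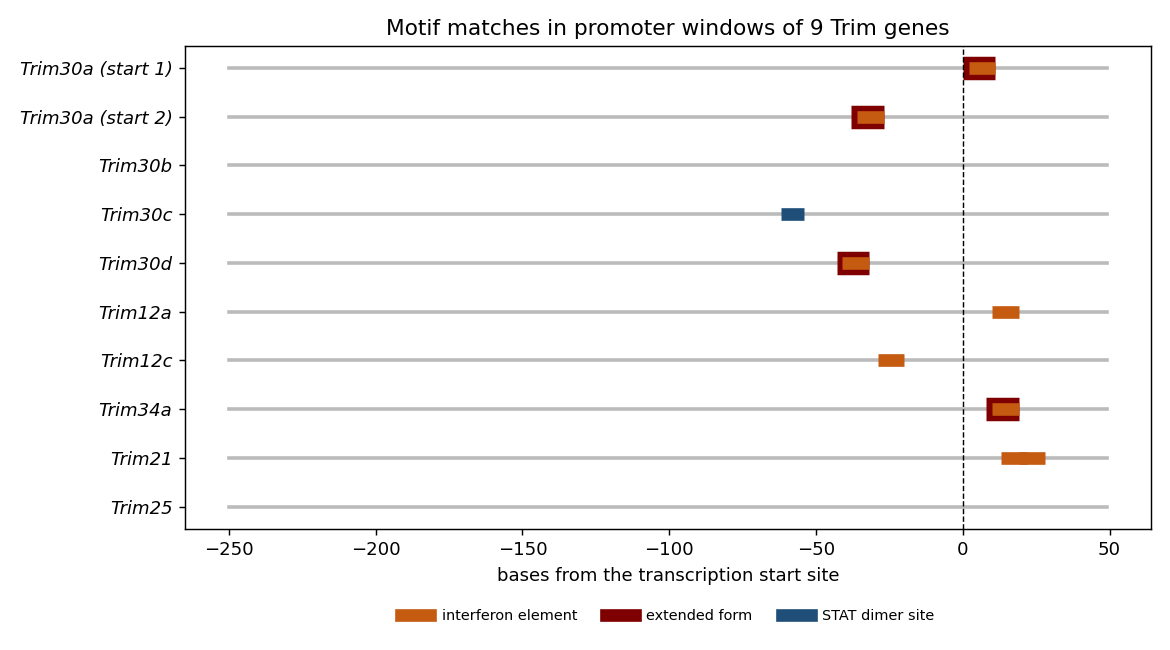
Matches in the promoter windows of 9 Trim genes, drawn as distance in bases from the annotated start site (dashed line). Orange boxes are the interferon element, dark red boxes its extended form and the blue box a STAT dimer site; grey lines are the windows of 300 bases. The 6 genes with the element carry it within 41 bases of the start.

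The deposited values are RMA signals on a log2 scale, where 1 unit is a doubling. As RMA gives no detection call, the level below which 95% of 1405 rows of olfactory and vomeronasal receptor genes lay, 6.55, was used as a guide to background, and is called the receptor level here. Trim25 (mean over 18 arrays 8.65), Trim21 (7.67), Trim30d (7.20) and Trim30a (6.62) lay above it, and Trim34a (6.09), Trim14 (5.97), Trim12a (5.53), Trim12c (5.33), Trim30b (4.82) and Trim30c (4.24) below it. Of all rows with 1 symbol, 53.5% lay above it. Signals of different probes do not rank the RNA amounts of different genes.

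The 18 arrays had medians between 6.41 and 6.54, and each correlated with its own group at a mean r of at least 0.9913. For 5 of them (replicate 3 of WT before induction, all SIRT6 KD arrays at 20 hr, and replicate 1 of SIRT6 KD at 40 hr) the mean correlation with the other genotype at the same time was higher than with their own group. The log2 difference of the Sirt6 row, SIRT6 KD minus WT, was -0.18 at 0 hr, -0.30 at 20 hr and -0.22 at 40 hr (limma, adjusted p = 0.768, 0.617 and 0.479). The groups overlapped at 0 hr and at 20 hr, and at 40 hr all SIRT6 KD arrays lay below all WT arrays. The mean over the times was -0.23 (interval -0.37 to -0.1, limma adjusted p = 0.136), so the knockdown did not pass the test on these arrays. The study followed SIRT6 protein by western blot in 3T3-L1 cells, which the arrays do not measure. Of the preadipocyte and fibroblast markers 6 of 7 measured lay above the receptor level, of the adipocyte markers 7 of 7, of the leukocyte markers 3 of 8 and of the endothelial markers 0 of 4. The summed linear signal of the 8 leukocyte markers was between 649 and 748 on all arrays.

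Trim30d was the member that fell most after induction. In WT cells its signal was 8.31, 8.46 and 8.67 at 0 hr, 6.42, 5.99 and 6.07 at 20 hr, and 6.21, 6.40 and 6.32 at 40 hr. In SIRT6 KD cells it was 8.36, 8.60 and 8.56 at 0 hr, 6.97, 6.65 and 6.67 at 20 hr, and 6.84, 7.09 and 6.94 at 40 hr. In both genotypes every array after induction lay below every array before it. The WT arrays ended below the receptor level and the SIRT6 KD arrays just above it. The log2 change in WT was -2.32 at 20 hr (standard error 0.12, limma adjusted p = 5.24e-11) and -2.17 at 40 hr (adjusted p = 8.76e-11). As these WT arrays lay under the receptor level, the size of the fall has only a bound, and measured down to that level it was at least 3.82-fold. In SIRT6 KD it was -1.74 at 20 hr (adjusted p = 2.25e-09, 3.34-fold lower) and -1.55 at 40 hr (adjusted p = 1.04e-08).

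Trim30a, which in mouse is known to restrain NF-κB signalling by removing TAB2 and TAB3, fell in both genotypes. Its signal in WT was 7.19, 7.14 and 7.43 at 0 hr, 6.26, 6.05 and 5.97 at 20 hr, and 6.06, 5.83 and 6.30 at 40 hr. In SIRT6 KD it was 7.50, 7.46 and 7.55 at 0 hr, 6.46, 6.50 and 6.42 at 20 hr, and 6.60, 6.25 and 6.26 at 40 hr. As with Trim30d, no array after induction reached the arrays at 0 hr. The log2 change at 20 hr was -1.16 in WT (standard error 0.12, limma adjusted p = 3.05e-07) and -1.05 in SIRT6 KD (adjusted p = 1.18e-06). At 40 hr it was -1.19 (adjusted p = 2.38e-07) and -1.14 (adjusted p = 4.54e-07). The group means after induction lay under the receptor level in both genotypes, so these sizes are bounds too (at least 1.63-fold in WT and 1.94-fold in SIRT6 KD).

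Trim30b and Trim30c, the remaining Trim30 copies, were not called lower. Trim30b lay between 4.56 and 5.03 and Trim30c between 4.02 and 4.47 on all 18 arrays, both far below the receptor level, where a change in RNA may not show, and whether they differed from Trim30d and Trim30a was not tested. Their log2 changes after induction lay between -0.19 and 0.13, and neither passed the test in either genotype. The arrays of Trim30b in WT and of Trim30c in SIRT6 KD lay below those of 0 hr at 20 hr by less than the rounding of the values.

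Among the rodent relatives of TRIM5, the primate factor that binds incoming retroviral capsids, Trim12c fell and Trim12a did not pass the test. Trim12c was 5.71, 5.91 and 5.82 in WT at 0 hr, 5.13, 5.27 and 4.63 at 20 hr and 4.93, 4.76 and 4.64 at 40 hr. In SIRT6 KD it was 6.15, 5.96 and 6.10 at 0 hr, 5.18, 5.11 and 5.06 at 20 hr, and 5.31, 4.84 and 5.48 at 40 hr. The arrays at 0 hr were above all later ones in both genotypes, though all lay under the receptor level. Its log2 change was -0.80 at 20 hr and -1.03 at 40 hr in WT (standard error 0.15, limma adjusted p = 0.000435 and 3.52e-05), and -0.95 and -0.86 in SIRT6 KD (adjusted p = 7.64e-05 and 0.000252). Trim12a lay between 5.14 and 6.15, with log2 changes from -0.06 to 0.01 and wide intervals (in WT at 20 hr from -0.42 to 0.39). Its highest array, 6.15, was SIRT6 KD replicate 2 at 0 hr.

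Trim34a, whose human counterpart acts with TRIM5 against retroviral capsids, fell at 20 hr in both genotypes. A partial rise from 20 hr to 40 hr was called in WT alone. The genotypes were not called different in that step (SIRT6 KD minus WT -0.07, interval -0.42 to 0.27, limma adjusted p = 0.998). In WT the signal was 6.60, 6.56 and 6.73 at 0 hr, 5.38, 5.57 and 5.42 at 20 hr, and 6.05, 5.65 and 5.89 at 40 hr. With SIRT6 knocked down it was 6.80, 6.69 and 6.67 at 0 hr, 5.78, 5.53 and 6.00 at 20 hr, and 6.10, 5.97 and 6.24 at 40 hr. The WT arrays at 40 hr lay between those at 20 hr and those at 0 hr without overlap, whereas in SIRT6 KD those at 20 hr and 40 hr overlapped. The log2 change from 0 hr was -1.18 at 20 hr and -0.77 at 40 hr in WT (limma adjusted p = 2.14e-07 and 4.56e-05), and -0.95 and -0.62 in SIRT6 KD (adjusted p = 3.35e-06 and 0.000494). From 20 hr to 40 hr it was 0.41 in WT (standard error 0.12, adjusted p = 0.0305) and 0.33 in SIRT6 KD (adjusted p = 0.0773; called without SIRT6 KD replicate 3 at 20 hr, 0.45, adjusted p = 0.0201). The WT call was lost without any one of WT replicates 1 and 3 at 20 hr and 1 and 3 at 40 hr (log2 change 0.31 to 0.39, adjusted p = 0.096 to 0.18).

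Trim21, the cytosolic antibody receptor that marks antibody-coated viruses for degradation, was lower at both times in both genotypes. In WT it was 7.85, 8.19 and 8.17 at 0 hr, 7.11, 7.30 and 7.10 at 20 hr, and 7.32, 7.44 and 7.50 at 40 hr. The SIRT6 KD arrays read 8.15, 8.29 and 8.29 at 0 hr, 7.19, 7.68 and 7.65 at 20 hr, and 7.68, 7.59 and 7.55 at 40 hr. All arrays after induction were below all arrays at 0 hr, and all stayed above the receptor level. The log2 change was -0.90 at 20 hr and -0.65 at 40 hr in WT (limma adjusted p = 7.41e-06 and 0.000315), and -0.74 and -0.64 in SIRT6 KD (adjusted p = 7.13e-05 and 0.000397).

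Trim25, which activates the RNA sensor RIG-I by ubiquitination, was the brightest member and was not called lower in any comparison of times. In WT it was 8.55, 8.50 and 8.69 at 0 hr, 8.72, 8.70 and 8.58 at 20 hr, and 8.84, 8.87 and 8.85 at 40 hr. SIRT6 KD cells gave 8.49, 8.56 and 8.72 at 0 hr, 8.24, 8.63 and 8.44 at 20 hr, and 8.81, 8.65 and 8.87 at 40 hr. The WT arrays at 40 hr were above all earlier ones, with a log2 change from 0 hr of 0.27 that missed the threshold (standard error 0.096, limma adjusted p = 0.0505). It was called with a trended and robust prior (adjusted p = 0.0329), among rows above the receptor level (0.0237), with median centring (0.0358), with array weights (0.019), and in 5 of the refits with 1 array left out. In SIRT6 KD it rose by 0.34 from 20 hr to 40 hr (adjusted p = 0.0257), and the same step in WT was 0.19 (adjusted p = 0.33). The genotypes were not called different in this step (SIRT6 KD minus WT 0.16, interval -0.13 to 0.44, limma adjusted p = 0.998). The SIRT6 KD call was lost without replicate 1 or 3 at 20 hr or replicate 1 or 3 at 40 hr (0.25 to 0.34, adjusted p = 0.0587 to 0.124). Trim14, an adaptor of the mitochondrial antiviral protein MAVS that lacks the RING domain, lay between 5.76 and 6.23 on all arrays, with log2 changes from -0.11 to 0.02 and none past the test.

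**Figure D2:**
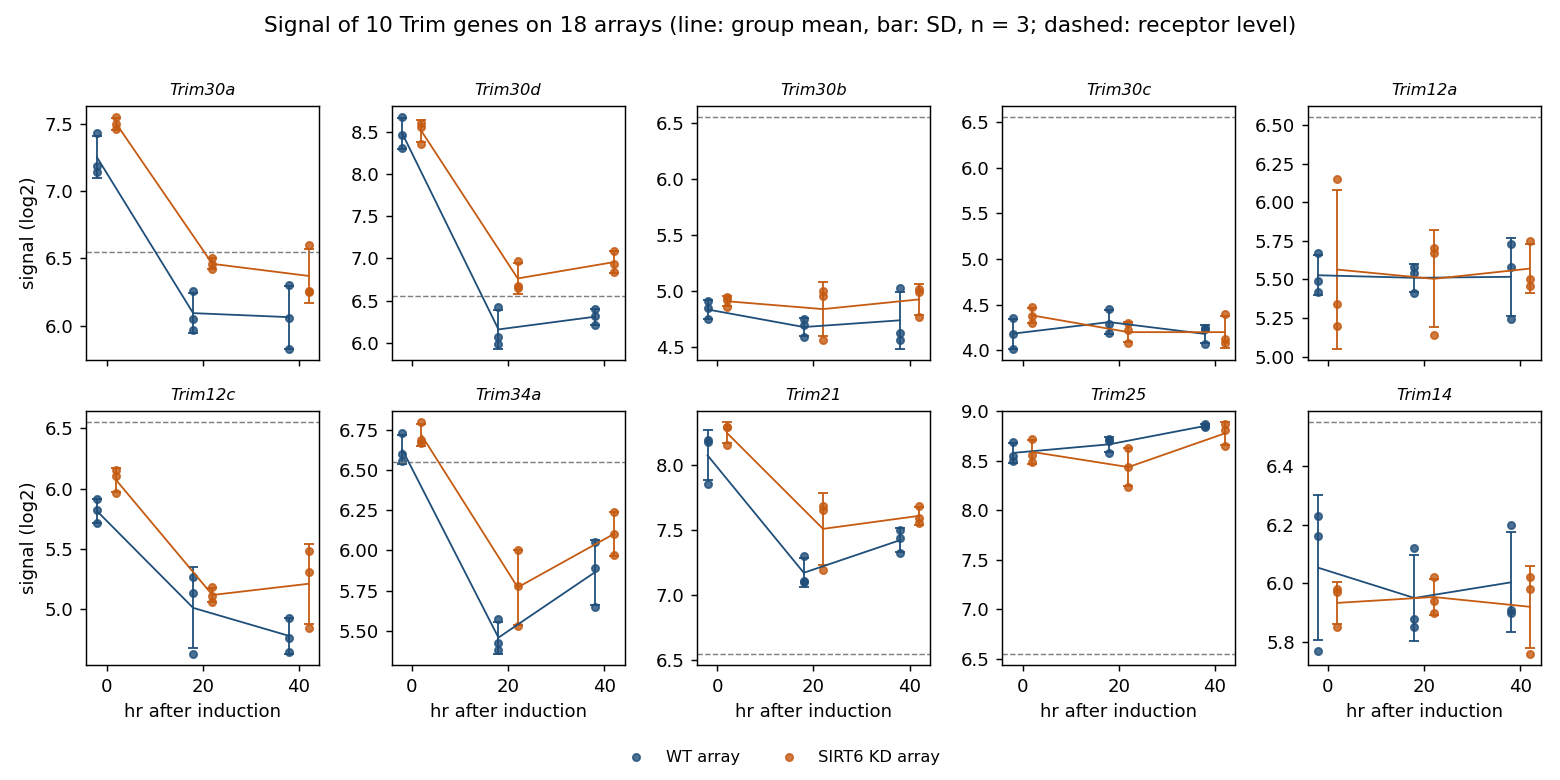
Signal (log2) of the 10 Trim genes at 0, 20 and 40 hr after induction; points are arrays, blue for WT and orange for SIRT6 KD, lines join group means and bars are SD (n = 3). The dashed line is the receptor level, 6.55. Trim30d starts between 8.31 and 8.67 in both genotypes and separates afterwards, with WT at 5.99 to 6.42 and SIRT6 KD at 6.65 to 7.09; each panel has its own scale.

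Counted together, 5 of the 10 members (Trim30a, Trim30d, Trim12c, Trim34a and Trim21) were lower at 20 hr than at 0 hr in WT and 0 were higher, where 11.7% of the 23521 rows tested were lower and 14.1% higher. The same 5 were lower in WT at 40 hr (10.6% of all rows), in SIRT6 KD at 20 hr (12.2%) and in SIRT6 KD at 40 hr (12.5%). The smallest of these falls as measured was 1.53-fold (Trim34a in SIRT6 KD at 40 hr, where its arrays lay under the receptor level). The median log2 change of the 10 members was -0.48, -0.37, -0.46 and -0.40 in these 4 comparisons, against 0, 0, 0.03 and 0.04 over all rows. From 20 hr to 40 hr, 1 member was higher in WT (Trim34a, against 3.75% of all rows) and 1 in SIRT6 KD (Trim25, against 3.73%), and 0 were lower.

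**Figure D3:**
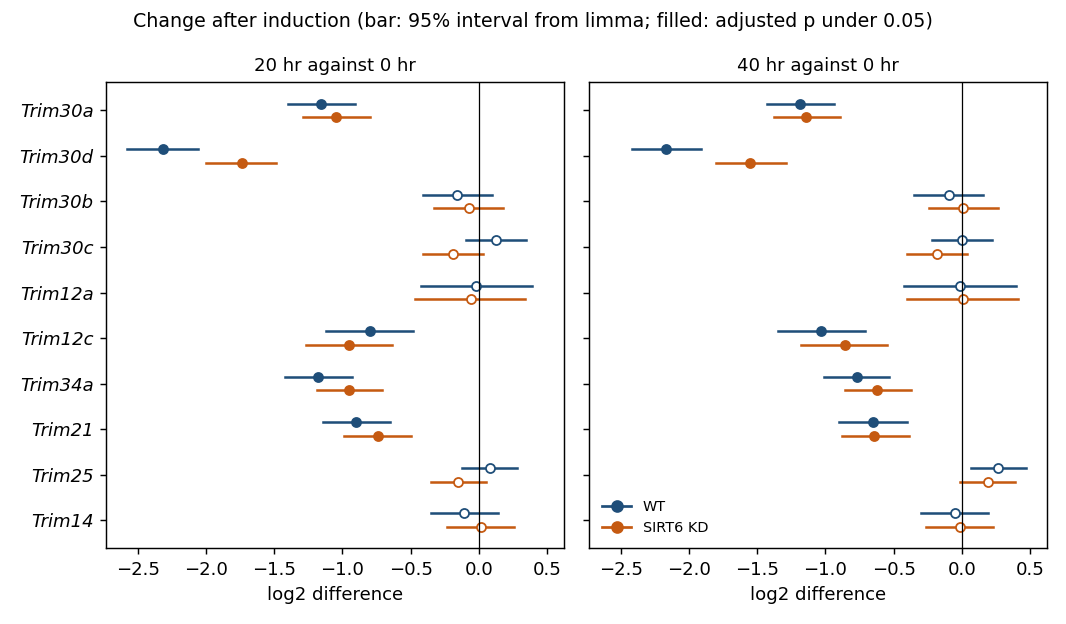
Log2 change from 0 hr at 20 hr and 40 hr, in WT (blue) and SIRT6 KD (orange); bars are 95% intervals from limma and filled points have an adjusted p under 0.05. The same 5 genes are filled on the negative side in both panels and both genotypes, and the fall of Trim30d is -2.32 in WT and -1.74 in SIRT6 KD at 20 hr.

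All 5 members that fell carried at least 1 exact match to the interferon element. Of the 5 that were not called, Trim12a held a match, Trim30b, Trim30c and Trim25 held none, and Trim14 had no window in the table used. Of these 5, Trim25 alone had a mean above the receptor level, and in the others a fall may not show. Trim12c and Trim34a, which fell, had means under that level too. The windows of Trim30a and Trim30d share a run of 118 bases, so they are not separate cases. Those of Trim12a, not called, and Trim12c, which fell, share a run of 71 bases and hold the same match, TTTCTGTTTC. They are not separate cases either. Whether the element bears on the fall was not tested.

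Rows that the array annotation shares between neighbours were read beside the single-gene rows. The brightest row of Trim12c is shared with Trim5 (mean 7.71, above the receptor level) and was 8.20, 8.35 and 8.72 in WT at 0 hr, 7.21, 7.41 and 7.30 at 20 hr and 7.22, 7.42 and 7.15 at 40 hr. Its log2 change was -1.12 and -1.16 in WT and -1.19 and -1.09 in SIRT6 KD at 20 hr and 40 hr (standard error 0.14, limma adjusted p = 1.72e-05 to 4.84e-05 over 41345 rows). A second, dimmer row of the same pair changed by -0.48 to -0.67, with each adjusted p at most 0.00126. The row shared by Trim34a and Trim34b changed by -1.65 and -1.10 in WT and by -1.34 and -0.63 in SIRT6 KD, the last with an adjusted p of 0.0824. The second row of Trim34a alone (mean 5.26) changed by -0.70 and -0.66 in WT and by -0.43 and -0.45 in SIRT6 KD (adjusted p = 0.00143, 0.00259, 0.044 and 0.0377), and did not rise from 20 hr to 40 hr in WT (0.04, adjusted p = 0.954). In all of these rows the group means were lower after induction than at 0 hr. The row of the pseudogene Trim30e-ps1 lay between 3.46 and 4.39, far under the receptor level, and was called higher in SIRT6 KD at 40 hr than at 20 hr (0.47, limma adjusted p = 0.0344). Its difference between the genotypes at 40 hr was 0.42 (adjusted p = 0.241).

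**Figure D4:**
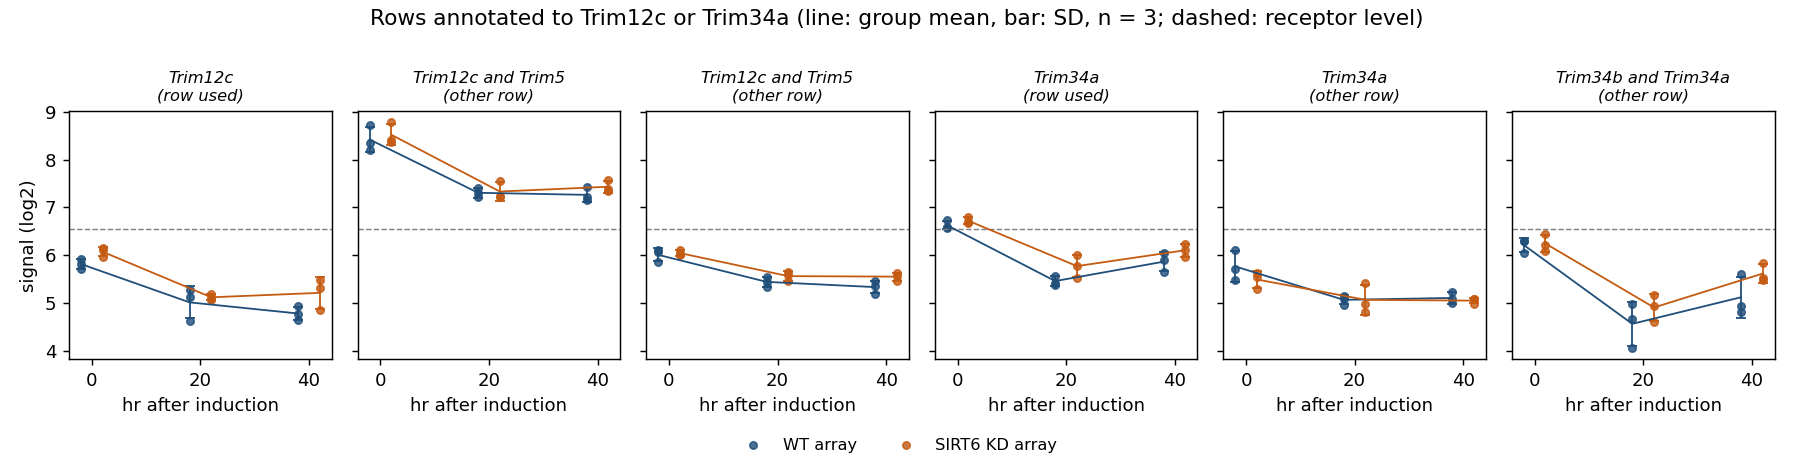
Signal (log2) of the rows annotated to Trim12c or Trim34a at 0, 20 and 40 hr after induction, in WT (blue) and SIRT6 KD (orange); points are arrays, lines group means, bars SD (n = 3) and the dashed line the receptor level. The bright row shared with Trim5 starts at 8.20 to 8.78 and lies at 7.15 to 7.57 after induction, a fall seen at lower signal in the rows of Trim12c and Trim34a alone.

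The comparison of SIRT6 KD with WT asks whether loss of SIRT6 altered these genes. For Trim30d the difference chose the family, and its values are given as a description. At 0 hr, a time that the choice did not use, the genotypes overlapped (log2 difference 0.03, 95% interval -0.23 to 0.28, limma adjusted p = 0.975). At 20 hr the lowest SIRT6 KD array, 6.65, lay above the highest WT array, 6.42, with a difference of 0.61 between the means (6.77 ± 0.179 against 6.16 ± 0.229, SD, n = 3). At 40 hr the lowest SIRT6 KD array, 6.84, lay above the highest WT array, 6.40, with a difference of 0.65 (6.96 ± 0.122 against 6.31 ± 0.0962). The WT arrays lay under the receptor level at both times, so the difference in RNA may be larger than these values. The 3 SIRT6 KD arrays at 20 hr each correlated more with WT than with one another over all rows, and the part of that in the difference was not tested. Replicate 1 of SIRT6 KD at 40 hr, also nearer WT, was the lowest of its group for Trim30d (6.84). Leaving it out therefore had to raise the difference at 40 hr, which became 0.70, and this lends it no support.

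None of the other members was called between the genotypes. The count was 0 of 10 at 0 hr, where 0% of all rows were called, and 0 of 9 without Trim30d at 20 hr (0.0213% of all rows), at 40 hr (0.0935%) and for the mean of the 3 times (0.378%). At an unadjusted p under 0.05 the fit gave 1 member at 0 hr, 4 at 20 hr, 2 at 40 hr and 4 for the mean of the times, where 6.91%, 6.65%, 11% and 11.4% of all rows passed. Those at 20 hr did not share a direction: Trim30a, Trim34a and Trim21 were higher in SIRT6 KD and Trim25 was lower (-0.23). For Trim34a this rests on the row used. Its second row alone had a difference of 0 at 20 hr and -0.11 for the mean (limma unadjusted p = 0.997 and 0.225). The smallest adjusted p of a member was 0.723, 0.521, 0.296 and 0.0575. The median difference of the members was 0.08 at 0 hr (all 10), 0.11 at 20 hr and 0.18 at 40 hr (9 without Trim30d), against -0.01, -0.01 and 0 over all rows.

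Trim30a came nearest. Its lowest SIRT6 KD array exceeded the highest WT array at 0 hr (7.46 to 7.55 against 7.14 to 7.43) and at 20 hr (6.42 to 6.50 against 5.97 to 6.26), and overlapped at 40 hr (6.25 to 6.60 against 5.83 to 6.30). The log2 difference was 0.25 at 0 hr (interval 0.01 to 0.50, limma adjusted p = 0.723), 0.36 at 20 hr (0.12 to 0.61, adjusted p = 0.521) and 0.30 at 40 hr (0.06 to 0.55, adjusted p = 0.344). Averaged over the 3 times it was 0.31 (standard error 0.068, interval 0.16 to 0.45, adjusted p = 0.0575). This average was called with a trended and robust prior (adjusted p = 0.031), with array weights (0.0301), among rows above the receptor level alone (0.0229) and without WT replicate 3 at 40 hr (0.0324). The difference changed from that at 0 hr by 0.11 at 20 hr (interval -0.24 to 0.46) and by 0.05 at 40 hr (-0.30 to 0.40), neither of which was called.

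For Trim12c the lowest SIRT6 KD array exceeded the highest WT array at 0 hr (5.96 to 6.15 against 5.71 to 5.91), and for Trim21 at 40 hr (7.55 to 7.68 against 7.32 to 7.50). Arrays apart in this direction were found for 2 of 10 members at 0 hr (Trim30a and Trim12c, against 5.6% of all rows), 1 of 9 at 20 hr (Trim30a, 5.42%) and 1 of 9 at 40 hr (Trim21, 6.13%). A two-sided exact permutation test gives p = 0.1 in each of these cases, the smallest value possible with 3 arrays against 3. The log2 difference of Trim12c was 0.26, 0.11 and 0.43 at 0, 20 and 40 hr, that of Trim34a 0.09, 0.31 and 0.24, and that of Trim21 0.18, 0.33 and 0.19. At 20 hr, Trim25 had -0.23 (interval -0.43 to -0.03, limma adjusted p = 0.664). The intervals leave room for a difference of up to 0.75 for Trim12c at 40 hr, so these values do not show that the genotypes were alike. In the row shared with Trim5 the difference was 0.10, 0.03 and 0.17. No member was called for a change of this difference with time (0 of 9 for each pair of times, smallest adjusted p = 0.936, 0.713 and 0.998 by limma, and 0% of all rows called), and 1, 0 and 0 members were at an unadjusted p under 0.05.

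**Figure D5:**
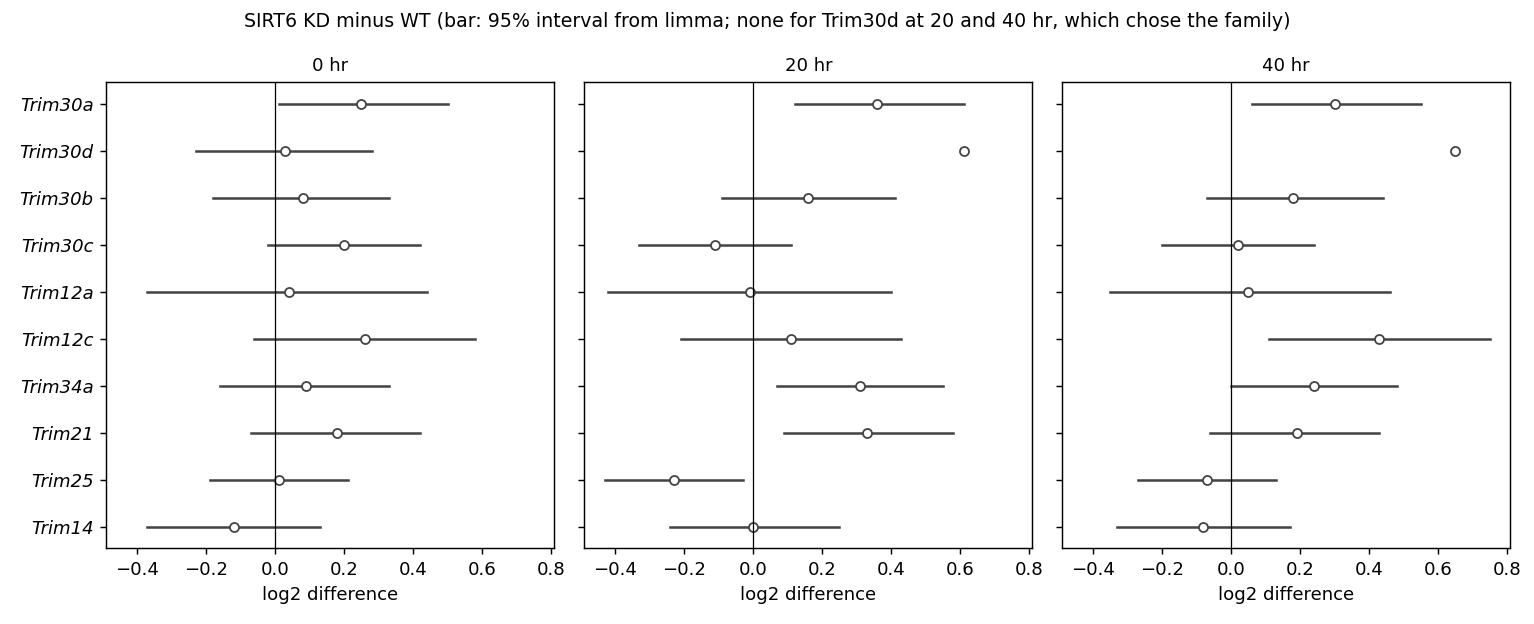
Log2 difference SIRT6 KD minus WT at 0, 20 and 40 hr for the 10 Trim genes; bars are 95% intervals from limma, left out for Trim30d at 20 and 40 hr, whose difference chose the family. Open points mark values not called or not tested; Trim30d is at 0.03, 0.61 and 0.65 and Trim30a between 0.25 and 0.36.

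The 5 members that fell followed each other over the 18 arrays, with Pearson r between 0.84 and 0.96 for each pair. With each time's mean removed, r was between 0.37 and 0.66. Among the other 5 members r lay between -0.12 and 0.51, and between the sets between -0.34 and 0.47. With each time's mean removed these ranges were -0.14 to 0.51 and -0.5 to 0.54, which overlap that of the 5 that fell. As the 5 were grouped by their shared fall, a high r over the time course follows in part from the grouping. These are descriptions over arrays that share their time course, and carry no p.

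The genes whose signal ran most like Trim30d over the 18 arrays were Stard9, 4933400A11Rik, Cryab (the small heat shock protein αB-crystallin), Tlr3 (the endosomal receptor for double-stranded RNA) and Nexn (an actin-binding protein), with r from 0.972 to 0.975. Tlr3 fell by 1.59 on the log2 scale in WT at 20 hr and by 1.24 in SIRT6 KD. Those most like Trim30a were Dst, Dglucy, Adcyap1r1, Loxl3 and 4933400A11Rik, with r from 0.968 to 0.976. The choice of measure matters to these names: by Spearman's rho 0 of the 5 for Trim30d and 1 of the 5 for Trim30a were named again, and with time means removed 0 and 1.

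The rest of the interferon pathway was read from lists of receptors and signalling genes, sensors, and stimulated genes other than Trim genes. Of the 30 interferon-stimulated genes measured, 20 lay above the receptor level. In WT at 20 hr 18 of the 30 were lower (60%, against 11.7% of all rows) and 1 was higher (3.33%, against 14.1%). The median log2 change was -0.42 against 0 for all rows. In SIRT6 KD 17 were lower and 1 higher at 20 hr (56.7% and 3.33%, against 12.2% and 13.2%). The median there was -0.47, against 0.03. At 40 hr 15 were lower and 1 higher in WT, and 16 and 1 in SIRT6 KD. The lower ones were 50% and 53.3% of the list, against 10.6% and 12.5% of all rows. The largest called changes in WT at 20 hr were those of Ifit3, which binds viral RNA caps together with its partners (-1.81, limma adjusted p = 0.00014), and Xaf1, a partner of the apoptosis inhibitor XIAP (-1.36, adjusted p = 9.11e-09). These counts set the 5 of 10 Trim genes beside other genes of the same pathway, and no difference between the lists was tested.

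The signalling genes included some that rose and some that fell. Of 20 measured, 5 were lower and 4 higher in WT at 20 hr (median 0.02), and 5 and 3 in SIRT6 KD. These are 25% and 20% in WT, against 11.7% and 14.1% of all rows. In SIRT6 KD they are 25% and 15%, against 12.2% and 13.2%. Socs3, an inhibitor of JAK kinases, rose by 1.31 (limma adjusted p = 9.52e-09) and the kinase gene Jak2 by 0.84 (adjusted p = 1.86e-08). Of the 18 sensing genes measured, 5 were lower and 1 higher in WT at 20 hr (27.8% and 5.56%). In SIRT6 KD 6 were lower and 1 higher (33.3% and 5.56%), where the same shares of all rows apply. Ddx58, which encodes the RIG-I sensor that Trim25 acts on and which stood in the list of stimulated genes too, fell by 1.01 (adjusted p = 1.83e-08), and Cgas, the DNA sensor, rose by 1.20 (adjusted p = 6.42e-07). Between the genotypes 0 genes of these 3 lists were called by limma at any time, and at an unadjusted p under 0.05 there were 1, 0 and 1 of the 20 signalling genes, 1, 1 and 0 of the 18 sensors and 1, 6 and 1 of the 30 interferon-stimulated genes at 0, 20 and 40 hr, where 6.91%, 6.65% and 11% of all rows passed.

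The 54 other Trim genes on the array, Trim30e-ps1 among them, were not sorted by a link to interferon. Of the 54, 5 were lower and 8 higher in WT at 20 hr, with a median of -0.04. These are 9.26% and 14.8% of them, where 11.7% and 14.1% of all rows were called. In SIRT6 KD 3 were lower and 7 higher (5.56% and 13%, against 12.2% and 13.2% of all rows). Trim16 fell by 1.05 (limma adjusted p = 1.41e-08) and Trim27 rose by 0.67 (adjusted p = 6.84e-06). Again 0 were called between the genotypes by limma, with 7, 1 and 7 at an unadjusted p under 0.05 at 0, 20 and 40 hr (6.91%, 6.65% and 11% of all rows). These counts were not tested against those of the 10 members.

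The cells changed as a whole over this time. The summed linear signal of the adipocyte markers was 6170 to 7070 in WT at 0 hr, 5950 to 6050 at 20 hr and 11300 to 12300 at 40 hr. In SIRT6 KD it was 6750 to 6940, 5040 to 5540 and 11300 to 11500. Taken singly, 2 of these 7 markers were called higher and 1 lower by limma in WT at 20 hr. In SIRT6 KD at 20 hr 0 were called higher and 1 lower. The sum of the preadipocyte and fibroblast markers in WT was 9340 to 10200 at 0 hr, 7050 to 7450 at 20 hr and 7880 to 8280 at 40 hr, and in SIRT6 KD 9220 to 10100, 7120 to 7820 and 7630 to 8360. In such a culture fewer cells that express a gene and less RNA per cell cannot be told apart, and the part of these shifts in the fall of the Trim genes was not tested.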

How the data were processed

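Total RNA of 18 samples (6 groups of 3) was hybridised to Affymetrix Mouse Gene ST arrays. The authors deposited log2 values processed by RMA (background correction, quantile normalization and a summary per transcript cluster), whose software version is not given in the sources used here. No values were changed before testing. Of 41345 rows, 23521 carried exactly 1 gene symbol, 16004 none and 1820 several. A linear model with 6 group means was fitted to the 23521 rows with limma 3.58.1 (lmFit and eBayes, R 4.3.3, 12 residual and 6.37 prior degrees of freedom) and 13 contrasts were taken. P-values were adjusted over all rows by the Benjamini-Hochberg method, with a threshold of 0.05. Single members were also compared by two-sided exact permutation tests. The fit was tested on simulated data. Named genes were the 10 members, the 5 genes most correlated with Trim30d and with Trim30a, and the 2 called genes with the largest change in WT at 20 hr from each list, and Sirt6. Members and lists were chosen with earlier results of these data known. Tests of Trim30d between genotypes at 20 hr and 40 hr, and for the mean of times and the changes with time, were not made. Promoter windows were searched in Python 3.11.15. Arrays carry no counting depth, and 3 arrays a group limit the precision. Replicate numbers did not pair the arrays. Alternatives were the model, the rows, the scaling, the threshold and each array left out in turn.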

Additional observations from a re-analysis of the deposited data

How the results depend on the processing

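The 5 members lower at 20 hr and at 40 hr in each genotype kept an adjusted p under 0.05 in every refit with 1 array left out, so the count stayed at 5, except that it was 5 to 6 in WT at 40 hr, where Trim25 was called higher without WT replicate 3 at 0 hr (0.32, adjusted p = 0.036) and without each of SIRT6 KD replicate 3 at 0 hr, replicates 1 and 2 at 20 hr and replicate 2 at 40 hr (adjusted p = 0.0286 to 0.0481). Trim25 was called there too with a trended and robust prior, among rows above the receptor level, with median centring and with array weights. It was also called without 2 of the 5 arrays nearer the other genotype. Over these settings its log2 change was 0.27 to 0.32 (adjusted p = 0.019 to 0.0424). The 2 left out were SIRT6 KD replicate 1 from the 40 hr group and WT replicate 3 from before induction. All SIRT6 KD arrays at 20 hr, also nearer WT, were kept. Among rows above the receptor level, which hold 4 of the members, the counts at 20 hr in WT, and at 20 hr and 40 hr in SIRT6 KD, were 3. That filter uses the mean over the 18 arrays. Trim30a (6.62) passed it only through its arrays at 0 hr, as its later group means were 6.06 to 6.46. These counts are therefore no separate support for a fall. The 1 member called from 20 hr to 40 hr was less stable. In WT the count was 0 with an unmoderated model, among rows above the receptor level, over all rows, with median centring, at an adjusted p under 0.01, under both rules with a fold of 1.5, with the dimmest row of each gene, with shared rows, and 0 to 1 with 1 array left out. In SIRT6 KD it was 0 over all rows, with median centring, array weights and only the groups compared. It was also 0 at an adjusted p under 0.01, under both fold rules and without the 2 arrays named above. It was 2 with shared rows (Trim25 and Trim34a) and 0 to 1 with 1 array left out. Without SIRT6 KD replicate 3 at 20 hr the call passed from Trim25 (adjusted p = 0.0587) to Trim34a (0.45, adjusted p = 0.0201). For SIRT6 KD against WT averaged over the times the count was 1 in place of 0 with a trended and robust prior, among rows above the receptor level and with array weights (Trim30a each time), and 0 to 1 with 1 array left out: Trim30a without WT replicate 3 at 40 hr and Trim21 without SIRT6 KD replicate 1 at 20 hr (0.28, adjusted p = 0.0404). The difference of Trim25 at 0 hr turned to -0.01 with cyclic loess. In the dimmest row of Trim34a the difference turned to -0.27 at 0 hr, -0.06 at 40 hr and -0.11 for the mean of the times, and its change from 20 hr to 40 hr in SIRT6 KD to -0.02. With 1 array left out, the difference at 0 hr ranged from -0.06 to 0.12 for Trim30d and from -0.06 to 0.06 for Trim25, and that of Trim12c at 20 hr from -0.08 to 0.24, turning negative without WT replicate 3. Shared rows and leaving out these 2 arrays were chosen after seeing the data. The cause of these changes was not tested.

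The replicate numbers did not pair the arrays (mean correlation of same-numbered deviations -0.02, -0.01 and -0.03), so a replicate block was only an alternative. With the replicate block the counts were 5 of 10 lower at both times in both genotypes, as without it, and 0 between the genotypes.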
